A study of Mus musculus with 24 samples.

Results

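Nodal is a secreted ligand of the TGF-β family that signals through activin receptors and the coreceptor encoded by Tdgf1 to SMAD2 and SMAD3, which enter the nucleus and act on DNA together with partners such as the forkhead factor FOXH1. The Lefty proteins and Cerberus are secreted inhibitors of this pathway, and the Lefty genes are themselves classical targets of it, so that the signal limits itself. In the early mouse embryo, Nodal is needed for formation of the primitive streak, mesoderm and endoderm and for left-right asymmetry, and in cultured pluripotent cells the pathway is active and is shut down as cells take on a neural fate.

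The genes described here were Nodal, the inhibitors Lefty1, Lefty2 and Cer1, the coreceptor Tdgf1, the receptors Acvr1b, Acvr2a and Acvr2b, and Foxh1, which were chosen by name as core components of the pathway and make up 9 genes of the 21909 symbols in the RNAseq tables. The study mapped contacts of chromatin with the nucleolus in mouse embryonic stem cells (ESCs) and in neural progenitor cells (NPCs) derived from them, and measured gene expression by RNAseq in 3 ESC and 3 NPC samples. The maps came from ESC lines with an inducible H2B-Dam or H2B-Dam-NoLS transgene and from NPCs derived from these lines, treated with doxycycline and Shield1. No such treatment is listed for the RNAseq samples. The ESCs were of the E14 line, grown without feeder cells in 2i medium with LIF at 1000 U/ml, the GSK3β inhibitor CHIR99021 at 3 µM and the MEK inhibitor PD0325901 at 1 µM. The NPCs came from the same line by differentiation as embryoid bodies for 8 days in a medium with fetal calf serum, with retinoic acid at 2 µM during the last 4 days. The 3 samples of each cell type are labelled as replicates 1, 2 and 3, and the paper describes the RNAseq as done in triplicates. Medium and cell type differed together between the groups, so that an effect of the inhibitors or the serum and an effect of differentiation cannot be told apart. An aggregate culture can hold several cell types, and in bulk samples fewer cells of a type and less RNA per cell cannot be told apart.

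The deposited values were RPKM, that is, reads scaled by gene length and depth. Their steps gave back whole reads for 18342 of the 18504 gene lines above 0 in any sample (99.1%, within 0.02 reads of a whole number where the annotated span was used), and with them the depth of each sample. ESC replicates 1, 2 and 3 had depths of 34.1, 33.7 and 30.8 M reads, and NPC replicates 1, 2 and 3 had 30.2, 27.26 and 32.3 M reads (M, mega). The length in the RPKM values was the whole span of the gene from first to last base, introns included, for 17006 of the 18324 lines that were above 0 and had a span in GENCODE M21 (92.8%). RPKM values of a gene can therefore be compared between samples, and also served for a search for genes close to Nodal or Lefty2. Apart from that search, levels of different genes are compared here only as recovered reads per kb of exon, scaled to depth as in RPKM. The paper states that exon coverage was counted per gene, while the length used includes introns; whether reads in introns were left out cannot be told from the values, and any such reads would raise this level for genes with long introns, Acvr2a, Acvr1b and Acvr2b in the first place.

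ESC replicate 3 stood apart from the other ESC samples. The SD of the difference in log2(RPKM + 1) over genes at 1 RPKM or more in at least 3 samples was 0.09 between ESC replicates 1 and 2, but 0.49 and 0.47 between ESC replicate 3 and each of them, and 0.07 to 0.12 among the NPC samples. The difference followed the span of the genes: in ESC replicate 3 the median difference from the other ESC samples was 0.39 on the log2 scale for spans up to 5 kb and -0.35 for spans over 50 kb. Of the genes described here, Foxh1 and Lefty1 have short annotated spans of 1724 and 3379 bases, and Acvr1b, Acvr2a and Acvr2b long ones of 39618, 89161 and 32878 bases. Ratios of means of the 9 genes, apart from Cer1, which was listed at 0, and log2 differences of the 7 that were tested on RPKM are therefore given with and without ESC replicate 3. Of other genes, the ESC means of Furin, Tgfbr1, Skil and Smad3 are given both ways.

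**Figure D1:**
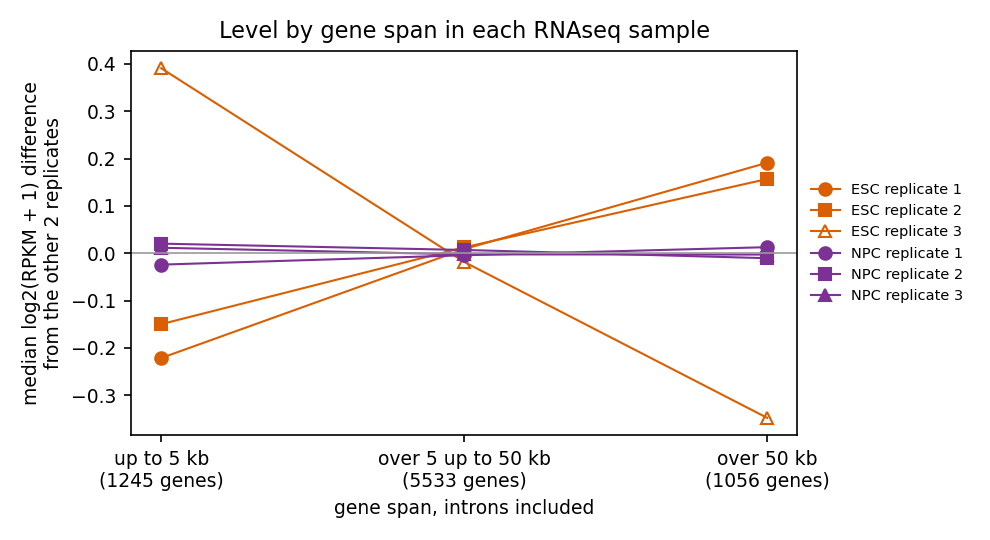
Median difference in log2(RPKM + 1) between each RNAseq sample and the other 2 samples of its cell type (vertical axis), for genes in 3 classes of gene span (horizontal axis), over genes at 1 RPKM or more in at least 3 samples. ESC replicate 3 (open triangles) lies at 0.39 for genes up to 5 kb and at -0.35 for genes over 50 kb, while the NPC samples stay close to 0.

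The labels of the cell types were checked with marker genes, of which most of those tested reached 1 RPKM in 1 cell type only and so had to differ. Their levels were summed on the exon scale, and the gene named as the most abundant led in each sample of its cell type. The 7 markers of naive ESCs summed to 3579, 3564 and 6889 in ESC replicates 1, 2 and 3 and to 5.06, 4.35 and 4.48 in NPC replicates 1, 2 and 3. All 7 were lower in every NPC sample than in every ESC sample, with Dppa5a as the most abundant in ESCs and Klf4 in NPCs. The 6 markers of neural progenitors summed to 6.74, 5.80 and 5.57 in ESC replicates 1, 2 and 3 and to 62.0, 68.2 and 64.4 in NPC replicates 1, 2 and 3. All 6 were higher in every NPC sample, with Nes as the most abundant in both cell types at a mean of 44.7 in NPCs, Pax6, a defining factor of the radial glia named in the labels, at 3.77 in NPCs, and Hes5 listed at 0 in all ESC samples.

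The NPC samples also held RNA of other lineages. The 6 markers of mesoderm and mesenchyme summed to 0.498, 0.502 and 0.372 in ESC replicates 1, 2 and 3, with Twist1 as the most abundant, and to 151, 166 and 159 in NPC replicates 1, 2 and 3, with Col1a1 as the most abundant. Foxf1 was listed at 0 in all ESC samples, and Hand1 stayed near 0 in both cell types. The 6 endoderm markers summed to 0.875, 0.964 and 0.598 in ESC replicates 1, 2 and 3 and to 150.5, 153 and 155 in NPC replicates 1, 2 and 3, with Gata4, a factor shared with some mesoderm, as the most abundant in both. Afp and Ttr were listed at 0 in all ESC samples and stayed under 1 RPKM in NPCs. The markers of mesoderm and endoderm that were tested, 5 and 4, passed the filter through NPC samples alone and had to differ.

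The 5 neuronal markers summed to 80.4, 86.4 and 106 in ESC replicates 1, 2 and 3 and to 41.9, 34.0 and 40.4 in NPC replicates 1, 2 and 3, with Stmn2 as the most abundant in ESCs and Tubb3 in NPCs. This lower sum came from Tubb3 and Stmn2, while the other 3 rose, Elavl3 from a mean of 0.134 to 4.44, Map2 from 0.217 to 2.38 and Dcx from 0 in all ESC samples to 5.61. The 3 floor plate markers summed to 0.355, 0.279 and 0.101 in ESC replicates 1, 2 and 3, with Foxj1 as the most abundant, and to 5.31, 6.66 and 5.67 in NPC replicates 1, 2 and 3, with Shh as the most abundant. The 3 neural crest markers summed to 2.92, 2.96 and 2.15 in ESC replicates 1, 2 and 3, with Tfap2a as the most abundant, and to 1.556, 1.596 and 1.597 in NPC replicates 1, 2 and 3, with Tfap2b, listed at 0 in all ESC samples, as the most abundant. The NPC samples are named by their label here, and the part of cells of other lineages in the results was not tested.

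Of the 9 genes, 7 reached 1 RPKM in at least 3 of the 6 samples and were tested with limma on log2(RPKM + 1), in which fold changes of low values are understated. Nodal, Lefty1, Lefty2, Tdgf1 and Foxh1 passed this filter only through the ESC samples and Acvr2b only through the NPC samples, so that these 6 had to differ, and their number supports nothing by itself. At a Benjamini-Hochberg adjusted p below 0.05, 5 of the 7 were lower and 1 was higher in NPCs, all 6 by 2-fold or more, a mark that Acvr2b missed with quantile normalization. Over all 7835 genes tested, 70.2% passed this threshold, 33.3% lower and 36.9% higher in NPCs, and 28.7% passed it with a change of 2-fold or more, 12.1% lower and 16.6% higher. The ligand, its Lefty inhibitors, the coreceptor and Foxh1 were thus above 10 RPKM in every ESC sample and under 1 RPKM in every NPC sample, while the activin receptors differed by less than 5-fold between the means of the cell types.

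**Figure D2:**
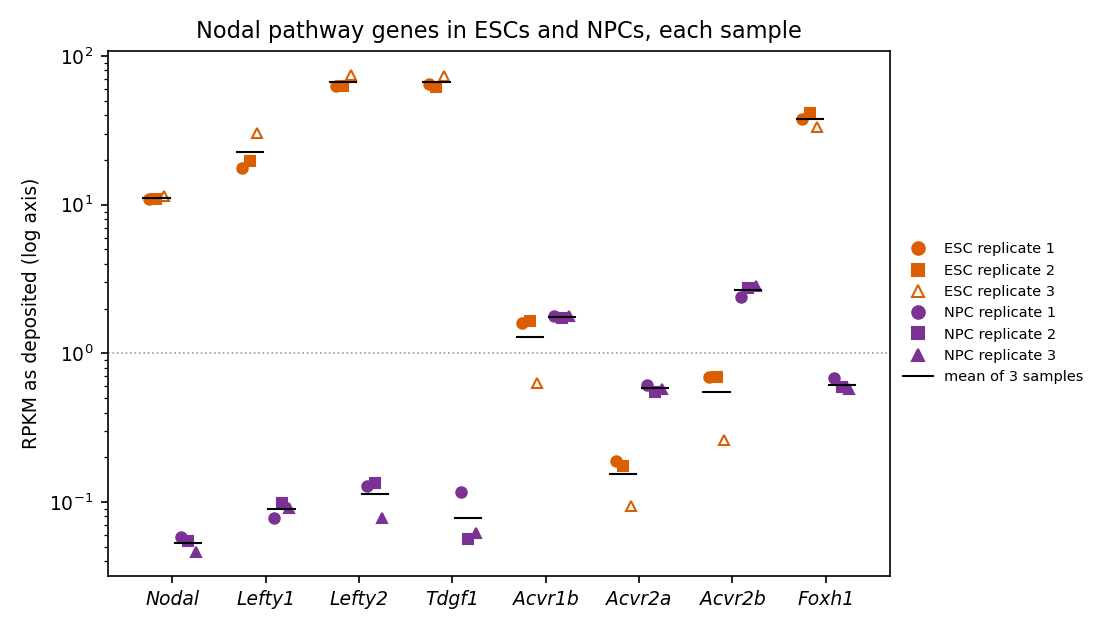
RPKM as deposited, on a log axis, of 8 of the 9 genes in each of the 3 ESC samples (orange) and 3 NPC samples (purple), with the mean of each group as a line and 1 RPKM as a dotted line; Cer1 was listed at 0 in all samples and is not drawn. Nodal, Lefty1, Lefty2, Tdgf1 and Foxh1 lie above 10 RPKM in ESCs and under 1 RPKM in NPCs, and ESC replicate 3 (open triangles) is the lowest sample for the receptors.

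Nodal, the ligand, lies at chr10:61417972-61425338 on the plus strand of GRCm38. Its level was 10.9, 10.9 and 11.5 RPKM in ESC replicates 1, 2 and 3 and 0.0585, 0.0548 and 0.0462 RPKM in NPC replicates 1, 2 and 3. The ESC samples were close to each other and every one was far above every NPC sample. The ESC mean was 208-fold the NPC mean, and 204-fold without ESC replicate 3. The NPC values stood for 13, 11 and 11 reads, against 2728, 2696 and 2613 reads in ESCs, and the ratio of the summed reads per depth had a 95% interval of 150 to 300.3 (exact binomial, counting error only). On the log2(RPKM + 1) scale, Nodal fell by 3.52 ± 0.06 (SE; limma, Benjamini-Hochberg adjusted p = 1.86e-07), and fell by 3.49 ± 0.03 without ESC replicate 3.

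The Lefty genes encode inhibitors that bind Nodal and its coreceptor, and they lie on the plus strand of chromosome 1, Lefty2 at chr1:180893108-180899103 and Lefty1 at chr1:180935022-180938400, 35.9 kb apart. Lefty1 was at 17.6, 19.8 and 30.4 RPKM in ESC replicates 1, 2 and 3 and at 0.0785, 0.0977 and 0.0917 RPKM in NPC replicates 1, 2 and 3. It was the most variable of the ESC-high genes, with ESC replicate 3 above the others, but the groups did not overlap. The ESC mean was 253-fold the NPC mean, and 209-fold without ESC replicate 3, and the NPC values stood for 8, 9 and 10 reads. Lefty1 fell by 4.40 ± 0.19 on the log2 scale (SE; limma, Benjamini-Hochberg adjusted p = 2.58e-06), and fell by 4.17 ± 0.05 without ESC replicate 3.

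Lefty2 was at 63.2, 63.4 and 75.03 RPKM in ESC replicates 1, 2 and 3 and at 0.127, 0.135 and 0.0775 RPKM in NPC replicates 1, 2 and 3. All ESC samples were high and all NPC samples were near 0, with 12894, 12815 and 13844 reads against 23, 22 and 15. The ESC mean was 594-fold the NPC mean, and 559-fold without ESC replicate 3. Lefty2 fell by 5.93 ± 0.10 on the log2 scale (SE; limma, Benjamini-Hochberg adjusted p = 1.86e-07), and fell by 5.85 ± 0.04 without ESC replicate 3. The transcripts of the Lefty genes share sequence: 97 of the 1657 windows of 100 bases in Lefty1 (5.85%) and of the 2510 in Lefty2 (3.86%) occur in both, so that reads of these parts could come from either gene. Over longer stretches the transcripts are similar without being identical, with 250, 249 and 350 bases of Lefty1 at 94.4%, 98.0% and 97.7% identity to Lefty2, and a stretch of 466 bases outside the annotated genes matches Lefty2 at 94.85% identity. How the authors counted reads that map to several genes is not given in the sources used here.

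Cer1, at chr4:82881751-82885148 on the minus strand, encodes Cerberus, an inhibitor of Nodal and BMP ligands. It was listed at 0 in all 6 samples. At these depths, 0 reads allow a level of up to 0.0259 RPKM in ESC replicate 1, the deepest sample, and up to 0.0324 RPKM in NPC replicate 2, the shallowest (3 reads, counting error only). Cer1 was therefore not detectable in either cell type, and it was not tested.

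Tdgf1, also known as Cripto, encodes a membrane-anchored coreceptor that Nodal needs to engage the activin receptors, and lies at chr9:110939603-110946158 on the minus strand. It was at 64.5, 61.7 and 73.3 RPKM in ESC replicates 1, 2 and 3 and at 0.116, 0.0560 and 0.0614 RPKM in NPC replicates 1, 2 and 3. All ESC samples were far above the NPC samples, whose values stood for 23, 10 and 13 reads. The ESC mean was 853-fold the NPC mean, the largest ratio among the 9 genes, and 810-fold without ESC replicate 3, with a 95% counting interval of the ratio of summed reads of 635 to 1157. Tdgf1 fell by 5.96 ± 0.09 on the log2 scale (SE; limma, Benjamini-Hochberg adjusted p = 1.76e-07), and fell by 5.89 ± 0.04 without ESC replicate 3. Copies of parts of its transcript lie on chromosome 16, in the pseudogene Tdgf1-ps1 (1009 bases at 96.7% identity) and outside the annotated genes (881 bases at 93.1%). Another lies on chromosome 17, in the pseudogene Tdgf1-ps2 (433 bases at 90.3%). These pseudogenes are not among the symbols of the tables, and reads from the copies could be counted for Tdgf1.

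Foxh1, at chr15:76668225-76669948 on the minus strand, encodes the forkhead partner of SMAD2 and SMAD3. Its level was 37.6, 41.6 and 33.4 RPKM in ESC replicates 1, 2 and 3 and 0.678, 0.595 and 0.577 RPKM in NPC replicates 1, 2 and 3. The groups were far apart, and the NPC values rested on more reads than those of the ligand and the inhibitors, with 34, 27 and 31. The ESC mean was 60.9-fold the NPC mean, and 64.2-fold without ESC replicate 3. Foxh1 fell by 4.57 ± 0.10 on the log2 scale (SE; limma, Benjamini-Hochberg adjusted p = 2.02e-07), and fell by 4.65 ± 0.06 without ESC replicate 3.

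The shares of these 5 genes left in NPCs were put in order without a test between them. The counting intervals of the ratio of summed reads overlapped for Tdgf1 and Lefty2, and for Lefty1 and Nodal. The NPC mean was 0.117% of the ESC mean for Tdgf1, 0.168% for Lefty2, 0.395% for Lefty1, 0.480% for Nodal and 1.64% for Foxh1. The 7 naive ESC markers spanned a wider range, with Dppa5a left at 0.0104%, Zfp42 at 0.0336%, Pou5f1 at 0.0341%, Nanog at 0.0552%, Esrrb at 0.146%, Tfcp2l1 at 0.251% and Klf4 at 4.45%. All 5 pathway genes lay within this range, of which Klf4 alone set the upper end. Lefty1, Nodal and Foxh1 were left at larger shares than every naive marker but Klf4. The order of the 12 genes was the same without ESC replicate 3.

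The receptors behaved differently. Acvr1b encodes the type I activin receptor that Nodal uses, and lies at chr15:101174067-101213684 on the plus strand. It was at 1.60, 1.65 and 0.636 RPKM in ESC replicates 1, 2 and 3 and at 1.79, 1.72 and 1.79 RPKM in NPC replicates 1, 2 and 3. ESC replicate 3 was far below all other samples, and the highest ESC sample was just below the lowest NPC sample. The NPC mean was 1.37-fold the ESC mean, and 1.09-fold without ESC replicate 3. The difference of 0.30 ± 0.19 on the log2 scale did not pass the test (SE; limma, Benjamini-Hochberg adjusted p = 0.185). Without ESC replicate 3 it was 0.08 ± 0.03 and did not pass either (limma, Benjamini-Hochberg adjusted p = 0.0622). It passed in 1 of 18 alternatives, a setting chosen after seeing the data that used reads per kb of exon and left out ESC replicate 3, with a difference of 0.11 ± 0.05 (limma, Benjamini-Hochberg adjusted p = 0.0473), and the adjusted p ranged from 0.0473 to 0.743 over the alternatives.

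Acvr2b, a type II activin receptor that binds the ligand, was the only gene of the 9 that was called higher in NPCs among those above the filter, and lies at chr9:119402118-119434995 on the plus strand. Its level was 0.693, 0.694 and 0.261 RPKM in ESC replicates 1, 2 and 3 and 2.39, 2.74 and 2.84 RPKM in NPC replicates 1, 2 and 3. All NPC samples were above all ESC samples, and ESC replicate 3 was again the lowest. The NPC mean was 4.83-fold the ESC mean, and 3.83-fold without ESC replicate 3. Acvr2b rose by 1.25 ± 0.13 on the log2 scale (SE; limma, Benjamini-Hochberg adjusted p = 0.000179), and rose by 1.11 ± 0.06 without ESC replicate 3. The annotated gene Gm47320 lies on the opposite strand over 3909 bases of Acvr2b and is not among the symbols of the tables. The sources name a library kit that marks strand and one that does not, so that reads of Gm47320 and Acvr2b may not be separated.

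Acvr2a, the other type II receptor, lies at chr2:48814109-48903269 on the plus strand and stayed under 1 RPKM in every sample, so that the filter left it out. It was at 0.190, 0.176 and 0.0944 RPKM in ESC replicates 1, 2 and 3 and at 0.616, 0.554 and 0.577 RPKM in NPC replicates 1, 2 and 3. These values stood for 576, 529 and 259 reads in ESCs and 1655, 1346 and 1662 reads in NPCs, and all NPC samples were above all ESC samples. The NPC mean was 3.80-fold the ESC mean, and 3.18-fold without ESC replicate 3. In the fit without a filter on low values, Acvr2a rose by 0.46 ± 0.04 on the log2(RPKM + 1) scale (SE; limma, Benjamini-Hochberg adjusted p = 0.000223), and it passed in all 5 fits that tested it, with adjusted p from 5.86e-08 to 0.000436. Per kb of exon, in fits chosen after seeing the data, it rose by 1.60 ± 0.19 with and rose by 1.39 ± 0.06 without ESC replicate 3. Orc4 overlaps the gene by 446 bases on the opposite strand and was at 1.07 and 1.12 RPKM in ESCs and NPCs.

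Levels of the genes were put in order per exon length on this scale. In ESCs, Tdgf1 had the highest level at 166 ± 15.1 (SD, n = 3) and Lefty2 followed at 154 ± 15.6, with overlapping ranges although Tdgf1 was above Lefty2 in every ESC sample, and at 158 and 145 without ESC replicate 3. Foxh1 at 45.7 ± 4.996, Lefty1 at 43.4 ± 13.1 and Nodal at 39.0 ± 1.34 came next. Without ESC replicate 3 they were at 48.3, 35.9 and 38.2, with Foxh1 above Nodal and Nodal above Lefty1 in both samples, whereas in ESC replicate 3 Lefty1 was above Foxh1 and Nodal. Below them came Acvr1b at 11.6 ± 5.12, Acvr2b at 4.60 ± 2.09 and Acvr2a at 2.404 ± 0.808, which kept this order in every ESC sample, and without ESC replicate 3 they were at 14.6, 5.81 and 2.87.

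In NPCs the order was turned. Acvr2b was highest at 22.2 ± 1.99, followed by Acvr1b at 15.8 ± 0.334 and Acvr2a at 9.13 ± 0.490, all with ranges apart. Foxh1 stood at 0.752 ± 0.0655 and Lefty2 at 0.260 ± 0.0714. Lefty2 was above Tdgf1 in every NPC sample with overlapping ranges, and the order of Tdgf1, Nodal and Lefty1, at means from 0.172 to 0.195, differed between samples.

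Ratios between components on the same scale describe their balance in each sample. The summed level of Lefty1 and Lefty2 was 4.68, 4.81 and 5.69 times that of Nodal in ESC replicates 1, 2 and 3. Tdgf1 was at 4.22, 4.04 and 4.52 times the level of Nodal in the same samples. The Lefty genes together and the coreceptor were thus each several times as abundant as the ligand in every ESC sample, while Lefty1 by itself was below Nodal in ESC replicates 1 and 2 and above it in ESC replicate 3. In NPC replicates 1, 2 and 3 the same ratios were 2.15, 2.58 and 2.18 for the Lefty genes and 1.41, 0.726 and 0.944 for Tdgf1, and rest on few reads. Among the receptors, Acvr2b was at 1.95, 2.11 and 1.48 times the level of Acvr2a in ESC replicates 1, 2 and 3 and at 2.07, 2.64 and 2.62 times in NPC replicates 1, 2 and 3, with ranges that overlapped. The level of Acvr1b over that of both type II receptors was 1.64 ± 0.0851 in ESCs and 0.506 ± 0.0310 in NPCs (SD, n = 3), with no overlap of the samples, and 1.68 in ESCs without ESC replicate 3. Acvr1b was thus above Acvr2a and Acvr2b together in every ESC sample and below them in every NPC sample. These ratios were not tested.

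The other pathway genes were taken from a list of 42 genes of Nodal, Activin and TGF-β signalling. Of the 25 that could be tested, 18 were higher and 5 lower in NPCs, beside the shares of 36.9% and 33.3% for all genes. By 2-fold or more, 13 were higher and 3 lower, beside shares of 16.6% and 12.1% for all genes. Of the 25 genes, 15 reached 1 RPKM in 1 cell type only, 13 in NPCs and 2 in ESCs, and had to differ, so that these counts support nothing by themselves. The other 10 were at 1 RPKM or more in samples of both cell types, and 5 of them were higher, 3 lower and 2 not called. Without ESC replicate 3, 18 of the 25 genes were again higher and 5 lower. The counts were 18 and 4 without NPC replicate 1, and 16 and 6 with quantile normalization. With quantile normalization 13 genes, in place of 16, changed by 2-fold or more.

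Ligands went in both directions. Gdf3, a relative of Nodal that uses the same receptors and coreceptor, was at 34.6, 37.9 and 46.9 RPKM in ESC replicates 1, 2 and 3, and only 2 reads were left in the 3 NPC samples together. The ratio of summed reads per depth was 8308, with a 95% counting interval of 2300 to 68609. The TGF-β ligands went the other way: Tgfb3 was under 0.01 RPKM in all ESC samples and at 9.51, 8.32 and 8.19 RPKM in NPC replicates 1, 2 and 3, and Tgfb2 at 0.00845 ± 0.000984 RPKM in ESCs and 3.26 ± 0.224 RPKM in NPCs (SD, n = 3). Gdf3 fell by 5.33 ± 0.12, Tgfb3 rose by 3.27 ± 0.08 and Tgfb2 rose by 2.08 ± 0.05 on the log2 scale (SE; limma, Benjamini-Hochberg adjusted p of 2.09e-07, 2.11e-07 and 2.58e-07), and without ESC replicate 3 the log2 differences were -5.21, 3.26 and 2.08. All 5 ligands tested, of 9, passed the filter through 1 cell type only and had to differ. Among those not tested, Inhbb was at 0.0560 RPKM in ESCs and 0.0577 RPKM in NPCs with overlapping groups, and Gdf1 and Mstn were listed at 0 in all 6 samples. Gdf1 lies over its 1771 bases within Cers1 on the same strand, so that its 0 may depend on how shared reads were counted. Genes on the opposite strand overlap others of the list, such as Ttll5 over 5149 bases of Tgfb3 and B230303A05Rik over 11573 of Inhba. Reads of such pairs may not be separated.

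Among the other extracellular inhibitors, Inha, the inhibin α subunit, was at 0.0844 ± 0.0326 RPKM in ESCs and 7.42 ± 1.12 in NPCs, and the pseudoreceptor Bambi at 1.396 ± 0.277 and 11.5 ± 0.628 RPKM (SD, n = 3). Fst, which encodes the activin-binding follistatin, went the other way, from 3.51 ± 0.139 RPKM in ESCs to 1.17 ± 0.104 in NPCs. Inha rose by 2.95 ± 0.11, Bambi rose by 2.38 ± 0.11 and Fst fell by 1.06 ± 0.07 on the log2 scale (SE; limma, Benjamini-Hochberg adjusted p of 1.15e-06, 2.62e-06 and 1.70e-05), and without ESC replicate 3 the log2 differences were 2.97, 2.48 and -1.07. Inha passed the filter through NPC samples only. Furin, a convertase that cuts the Nodal precursor, rose from 1.51 ± 0.504 RPKM, or 1.79 without ESC replicate 3, to 5.42 ± 0.431 RPKM (limma, Benjamini-Hochberg adjusted p = 0.000323), with log2 differences of 1.37 and, without ESC replicate 3, 1.20. Of the other receptors, only the type I TGF-β receptor Tgfbr1 could be tested, and it rose from 0.582 ± 0.222 RPKM, or 0.710 without ESC replicate 3, to 3.28 ± 0.162 RPKM (limma, Benjamini-Hochberg adjusted p = 4.14e-05), with log2 differences of 1.45 and, without ESC replicate 3, 1.32. It reached 1 RPKM in NPCs only.

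Of the 7 tested SMAD genes and cofactors that reached 1 RPKM in both cell types, 3 were higher, 2 lower and 2 not called. Over all genes tested, 70.2% were called, 36.9% higher and 33.3% lower. These shares include genes that reached 1 RPKM in 1 cell type only, and the share over genes at 1 RPKM in both was not computed. Nothing particular to these 7 genes can therefore be read from the count. A further 3 passed the filter through NPC samples only. The largest rises were those of Skil, a repressor of SMAD activity, from 1.51 ± 0.482 RPKM, or 1.79 without ESC replicate 3, to 8.32 ± 0.272 RPKM, and of Smad3, which passed the filter through NPC samples only and had to differ, from 0.346 ± 0.122 RPKM, or 0.417 without ESC replicate 3, to 2.37 ± 0.0850 RPKM (limma, Benjamini-Hochberg adjusted p of 4.74e-05 and 8.96e-06), with log2 differences of 1.91 and 1.33 and, without ESC replicate 3, 1.74 and 1.25. Tgif1, a corepressor of SMAD2, fell from 14.0 ± 0.352 to 8.19 ± 0.487 RPKM, and the inhibitory Smad7 from 2.79 ± 0.373 to 1.93 ± 0.103 RPKM (limma, Benjamini-Hochberg adjusted p of 0.000353 and 0.0113), with log2 differences of -0.71 and -0.37 and, without ESC replicate 3, -0.73 and -0.45. Drap1, whose product binds FOXH1, was at 32.8, 38.8 and 55.7 RPKM in ESC replicates 1, 2 and 3 and at 33.3, 35.9 and 35.2 RPKM in NPC replicates 1, 2 and 3, so that the groups overlapped and the difference did not pass (limma, Benjamini-Hochberg adjusted p = 0.305). Its log2 difference was -0.24, and -0.03 without ESC replicate 3.

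All 5 tested of the 8 mesendoderm genes known to act downstream of the pathway reached 1 RPKM in 1 cell type only and had to differ, 4 of them higher and 1 lower in NPCs. Lhx1 rose from 3 reads in all ESC samples together to 6.01, 5.99 and 7.07 RPKM in NPC replicates 1, 2 and 3 (limma, Benjamini-Hochberg adjusted p = 2.82e-07). Gsc, which marks the organizer, was at 1.79, 1.72 and 2.96 RPKM in ESC replicates 1, 2 and 3 and at 0.0313, 0.156 and 0.131 RPKM in NPC replicates 1, 2 and 3, and fell by 1.49 ± 0.15 on the log2 scale (SE; limma, Benjamini-Hochberg adjusted p = 0.000148) and fell by 1.32 without ESC replicate 3. Of the 17 genes of the list that could not be tested on RPKM, 10 could be tested per kb of exon, an alternative chosen after seeing the data, and 7 were higher and 3 lower in NPCs, beside shares over all 11842 genes of that fit of 43.0% and 29.7% (limma, Benjamini-Hochberg). Of these 10, 5 reached the threshold in 1 cell type only and had to differ. The lower ones were Eomes, the brachyury gene T and the convertase gene Pcsk6, and the higher ones included the activin subunit gene Inhba, which was listed at 0 in all ESC samples and stood at 0.562 ± 0.0235 RPKM in NPCs.

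Genes with a pattern close to that of Nodal were searched over all symbols as those with the smallest largest difference of log2(RPKM + 1) over the 6 samples. This search set RPKM values of different genes side by side, so that the genes found depend on their span. The closest to Nodal were Pnma5, Slc30a2, which encodes a zinc transporter, and Notum, which encodes a secreted Wnt inhibitor, with largest differences of 0.24, 0.25 and 0.29. Pnma5 was at 12.8, 11.9 and 9.64 RPKM in ESC replicates 1, 2 and 3 and had an NPC mean of 0.0359 RPKM. For Lefty2 the closest genes were Gtsf1l, Trap1a and Tdh, the threonine dehydrogenase of mouse ESCs, with largest differences of 0.35, 0.57 and 0.60. Gtsf1l was at 51.5, 50.9 and 95.8 RPKM in ESC replicates 1, 2 and 3, so that its ESC replicate 3 stood further above the others than that of Lefty2.

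The study's maps of nucleolus-associated domains (NADs) held 1769 NADs in ESCs and 1447 in NPCs. Acvr2a was the only gene of the 9 that overlapped a NAD, and it did so in both cell types, in chr2:48799007-49600183 with a score of 0.0635 in ESCs and in chr2:46299769-49600183 with a score of 0.0507 in NPCs, while its RNA was higher in NPCs. Of the 21432 genes placed on the genome, 27.1% overlapped a NAD in ESCs and 21.6% in NPCs. The other 8 genes, high in ESCs or not, lay outside NADs in both cell types. The nearest NADs were 154 kb from Tdgf1 and 218 kb from Nodal in both maps, and 1202 kb from Acvr2b in ESCs and 3465 kb in NPCs. Lefty1 and Lefty2 lay 161 and 201 kb from their nearest NAD in ESCs and 162 and 201 kb in NPCs. Of the 42 other pathway genes, 9 overlapped a NAD in ESCs and 11 in NPCs.

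Promoter sequences from RefSeq (GRCm38.p6, 250 bases before to 50 after the start) were matched for 6 of the 9 genes, and not for Lefty1, Lefty2 and Foxh1. The motifs AATCCACA and AATACACA of FOXH1 and the motif GTCTAGAC of SMAD3 and SMAD4, searched on both strands, were in 0 of these 6 promoters and in 0 of the 28 matched promoters of the wider list. Over all 32851 promoters, 0.855%, 0.980% and 0.213% held them. The promoters differed in CpG content. Nodal, Tdgf1 and Cer1 had 5, 7 and 6 CpG dinucleotides in 300 bases, close to the median of 7 over all promoters, while the receptors Acvr1b, Acvr2a and Acvr2b had 51, 54 and 27, above the upper quartile of 20. A relation of CpG content to the change in RNA was not tested. The promoters of the ligand, the coreceptor and Acvr2b are shown with CpG dinucleotides in capitals. They were chosen after the values were seen, and lie at chr10:61417722-61418021 on the plus strand, chr9:110946109-110946408 on the minus strand and chr9:119401928-119402227 on the plus strand.
Nodal: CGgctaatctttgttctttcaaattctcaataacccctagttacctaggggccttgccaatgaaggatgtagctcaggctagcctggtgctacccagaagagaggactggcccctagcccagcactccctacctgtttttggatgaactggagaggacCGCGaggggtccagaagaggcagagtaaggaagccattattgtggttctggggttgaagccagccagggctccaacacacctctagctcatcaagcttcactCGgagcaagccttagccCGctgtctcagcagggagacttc
Tdgf1: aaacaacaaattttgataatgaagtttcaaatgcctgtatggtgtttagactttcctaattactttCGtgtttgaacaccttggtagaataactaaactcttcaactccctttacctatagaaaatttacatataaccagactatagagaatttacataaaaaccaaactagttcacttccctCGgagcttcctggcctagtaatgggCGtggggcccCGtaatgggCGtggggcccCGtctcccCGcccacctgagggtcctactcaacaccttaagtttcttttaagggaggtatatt
Acvr2b: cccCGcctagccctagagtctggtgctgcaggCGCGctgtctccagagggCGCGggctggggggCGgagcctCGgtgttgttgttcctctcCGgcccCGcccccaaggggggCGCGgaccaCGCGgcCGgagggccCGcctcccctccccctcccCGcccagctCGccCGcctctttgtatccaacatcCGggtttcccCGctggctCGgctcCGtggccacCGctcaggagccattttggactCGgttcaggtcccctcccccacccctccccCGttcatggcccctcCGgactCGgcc

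The results rest on 3 samples per cell type, 1 line and 1 time point, and on ESC samples of which replicate 3 deviates with gene span. RNA was measured without protein, SMAD phosphorylation or ligand activity, so that the state of the signal itself is not known. The NPC levels of Nodal, Lefty1, Lefty2 and Tdgf1 stand for a few reads per sample, which do not tell a low level in all cells from a high level in rare cells. The NAD overlap concerns 1 gene and was not tested.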

How the data were processed

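RNAseq was measured in 3 ESC and 3 NPC samples, grouped by their labels. Before the authors deposited RPKM per gene, they filtered rRNA (SortMeRNA), cut read ends (Trimmomatic) and mapped to mm10, with STAR by the paper, while the sample notes name Bowtie2 and Subread. The NAD lists, with a score per NAD that the authors computed from H2B-Dam-NoLS over H2B-Dam reads, were made by the authors from peaks shared by 2 replicates, and their start positions count from 0 and are printed 1 higher. Neither source tells which annotation served, whether strand was used, or what became of multi-mapping reads. ChIPseq samples were not used here.

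The members and lists were chosen with earlier results of these data known. Whole reads and depth were computed from the steps of the deposited RPKM values and gene spans of GENCODE M21, and exon lengths are those of all annotated exons joined. NPCs were tested against ESCs by two-sided moderated t tests (limma 3.58.1 under R 4.3.3, functions lmFit and eBayes, trend on) of log2(RPKM + 1) over 7835 genes at 1 RPKM or more in at least 3 samples, with Benjamini-Hochberg adjustment and a threshold of 0.05. For the 153 symbols on more than 1 line, the line with the highest mean was used. Both steps were tested on simulated data, with an outcome that is not reported here. Intervals are exact 95% binomial intervals of counting error. Of the other pathway genes, those named have the largest called rise or fall of their role (up to 2 each) or a mean over 20 RPKM, and others were named after their values were seen. Some items that this covers are not reported here. Copies of transcripts were searched in GRCm38 with blastn. Tables and figures came from Python 3.11.15 (matplotlib 3.10.9, scipy 1.17.1, pandas 2.3.3, numpy 2.4.6). Alternatives changed the pseudocount, filter, scaling, moderation, replicate block, samples, unit and handling of repeated symbols.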

Additional observations from a re-analysis of the deposited data

How the results depend on the processing

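The 6 genes of the pathway that passed the test did so in all 18 alternatives, with adjusted p of at most 0.00152 (limma, Benjamini-Hochberg). Each had reached 1 RPKM in 1 cell type only and had to differ, so that this agreement supports nothing by itself. Their direction stayed the same, also with quantile normalization and with samples centred on their median. The centring moved the median log2 fold change of all genes from 0.02 to -0.09. With quantile normalization Acvr2b rose by 0.95 on the log2 scale, so that 5 of the 6 changed by 2-fold or more. The number of all genes called was 5500 as reported and 11454 without a filter on low values, 9150 with a filter of 0.1 RPKM, and, in alternatives chosen after seeing the data, 10870 with limma voom on recovered reads, 8608 with reads per kb of exon and 10507 with these and without ESC replicate 3. More genes entered each of these fits. Of the wider list, 23 genes were called as reported, 37 without a filter, 35 with a filter of 0.1 RPKM and 36 with voom. Leaving out each replicate in turn gave 4616 to 6884 genes in all, with the highest number without ESC replicate 3, always 6 of the 9 genes and 22 to 23 of the wider list.

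With the replicate number as a block, 5214 of all genes, 6 of the 9 and 23 of the wider list were called. Same-numbered ESC and NPC samples had correlations of their deviations from the group mean of 0.114, -0.0809 and 0.0335. Samples with other numbers had values from -0.0876 to 0.0874. These values show no clear pairing. They cannot tell whether the numbers pair the samples, because the deviation of ESC replicate 3 enters the mean of the ESC samples. The overlap with NADs stayed at 1 gene in each cell type with the transcription start in place of the gene body and with NADs scored at or above the median of 0.0256 in ESCs and 0.0413 in NPCs. Depth limits the NPC values of Nodal, Lefty1, Lefty2 and Tdgf1, which rest on 8 to 23 reads per sample.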
